A study of Xenopus tropicalis with 192 samples.

Results

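At 487 of the 6717 CpGs measured by targeted bisulfite sequencing in 192 Xenopus tropicalis frogs, some frogs read as fully unmethylated while others read as methylated. The 487 CpGs, 7.25% of those measured, were selected on their values. A CpG was kept if at least 3 frogs had a methylation fraction below 0.006 and at least 3 had a fraction above 0.5. The levels themselves are therefore described without a test, and the tests below concern age, tank and neighbouring CpGs.

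DNA methylation was measured for the construction of an epigenetic clock. The samples were skin punches from the hindlimb web of 187 adults and the whole body of 5 tadpoles. The 25 strain names were held in 34 tanks, and every frog had a Nigerian strain background. Frogs of a tank shared a strain and, in all tanks except that of frog 121, a listed age. The adults were 0.736 to 10.9 years old. The transgenic lines with the label prefix Tg were Xtr.Tg(eef1a1:GFP)Krieg (27 frogs), Xtr.Tg(otx2:GFP)Kellr (14), Xtr.Tg(CMV:Aequorin,GFP)NXR (10) and Xtr.Tg(cryga:GFP)Grngr (7). The lines with the prefix Et were Xtr.Et(CAGGS-SB10;cryga:RFP)Mead (6), Xtr.Et(CAGGS-SB10;cryga:RFP)7M8FMead (5), the line ending in 8FMead that joins CAGGS-SB10,cryga:RFP with CAGGS:GFP (5), Xtr.Et(eef1a1:GFP)psvbiMead (6), Xtr.Et(eef1a1:GFP)folMead (6), Xtr.Et(eef1a1:GFP)johMead (6), Xtr.Et(eef1a1:GFP)hbrMead (4) and Xtr.Et(eef1a1:GFP)cenMead (3). The other strain names were NIGERIAN F8 (19), NXR 1111 (17), CMV MEM GFP (13), SUPERMAN F8 (9), TYR (7), OLIG2 F1 (6), WT Superman (6), tubb2b GFP (6), gtpbp2 F1 KO (3), sox3 F0 (1) and tlx3 F0 (1). The tadpoles were Superman F9 WT (3, aged 89 days) and ZBTB14 KO (2, aged 177 days). The 3 Xtr.Tg(cryga:GFP)Grngr frogs of tank ?3, aged 273 days, also carry Tadpole in their sample titles. The study's sample table does not mark them as tadpoles, so they were counted among the adults. Whether web or whole body was sampled from them is therefore uncertain. The 22 oldest frogs, aged 10.9 years, were all of the Krieg strain, from 4 tanks on lane 1 of the 2 sequencing lanes. The mean CpG depth was 260 to 1103 reads per frog. No methylated and unmethylated read counts were used, so the precision of a single fraction is not known beyond the authors' minimum of 100 reads.

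In vertebrates, methylation is placed mainly on cytosines followed by guanine, and most CpGs outside regulatory regions are methylated in most cells. Bisulfite turns unmethylated cytosine into a base that is read as T, whereas methylated cytosine is still read as C. A T that is already present in the genome is also read as T, so a fraction near 0 does not tell an unmethylated cytosine from a cytosine that is missing from that frog's genome. In a diploid animal, a difference carried by 1 of the 2 copies of a chromosome gives a level about midway between the levels of the homozygous animals. The values alone do not show which of these holds at a CpG, and this was not tested.

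The probe sequences around 6 of the CpGs are shown because the levels, the segregation in tanks and the relation with age are described at them below. Each is given 5′ to 3′ as the capture probe table lists it, with v10.0 coordinates and the CG of the measured site in capitals.
Chr1:79104012 (chr1:79103987-79104036): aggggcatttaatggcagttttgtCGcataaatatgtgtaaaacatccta
Chr1:83365070 (chr1:83365045-83365094): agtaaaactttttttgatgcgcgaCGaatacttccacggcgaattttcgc
Chr4:98704010 (chr4:98703985-98704034): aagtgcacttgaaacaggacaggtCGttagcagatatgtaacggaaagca
Chr3:62371127 (chr3:62371102-62371151): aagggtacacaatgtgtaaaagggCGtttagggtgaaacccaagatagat
Chr1:45537816 (chr1:45537791-45537840): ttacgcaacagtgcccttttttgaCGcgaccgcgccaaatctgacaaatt
Chr2:14432305 (chr2:14432280-14432329): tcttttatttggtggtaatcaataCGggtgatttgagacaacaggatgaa

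Probe sequences were at hand for 310 of the 487 CpGs, and a CG stood in the probe at the listed position in all 310. The listed position was the second base of that CG, which is the cytosine of the opposite strand. Of the 104 CpGs at which both cytosines had been measured, 0 held a selected site, so the 2 strands of a selected CpG could not be compared. The base before the CG was G at 18.4% of the 310 CpGs and at 25.1% of the 2766 other CpGs with a probe sequence.

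The fractions at the 487 CpGs fell into 3 levels. Of the 93504 values, 14.9% were below 0.006, 37.3% lay from 0.3 to 0.7 and 40.9% were above 0.7. The remaining 6.89% lay from 0.006 to 0.3, and only 0.0759% of all values fell between 0.05 and 0.1. At the 6230 other CpGs, 0.0834% of values were below 0.006 and 84.2% were above 0.7. Of the 13959 low values at the selected CpGs, 9912 (71.0%) were exactly 0, although at least 100 reads lay behind each. The rule asked for values below 0.006 and above 0.5 and set no number of frogs for the intermediate or the high level. At 450 of the 487 CpGs at least 3 frogs lay in each of the 3 levels, and at 22 no frog was above 0.7. The median over CpGs of the intermediate level was 0.485 and that of the high level 0.893. The intermediate level was 0.539 of the high level in the median CpG (quartiles 0.515 and 0.589, n = 465 CpGs with a frog above 0.7).

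**Figure D1:**
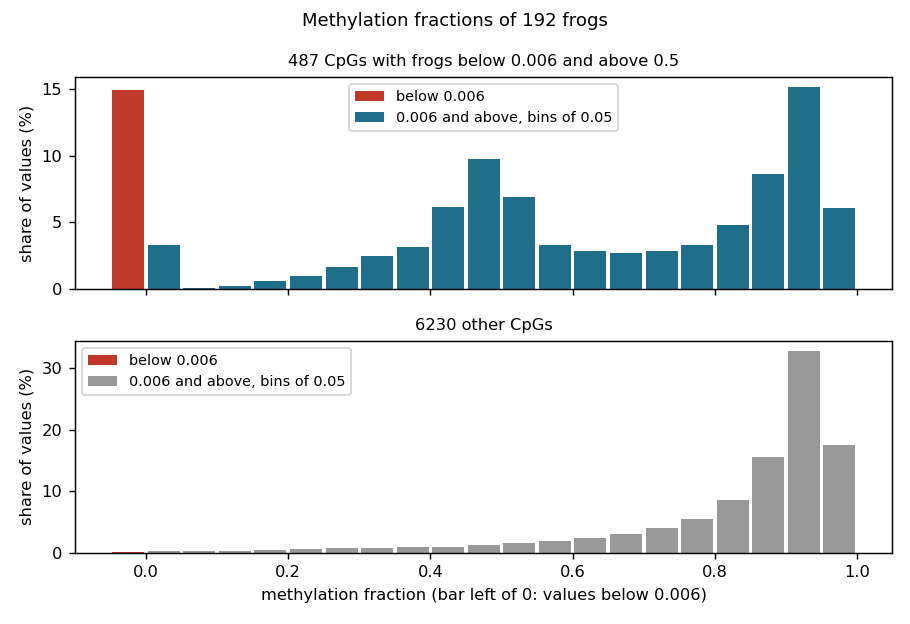
The share of all methylation fractions (vertical axis, in percent) in each bin of the fraction (horizontal axis) at the 487 selected CpGs (top) and the 6230 others (bottom). The selected CpGs have a peak below 0.006 (14.9% of values), one near 0.5 and one near 0.9, and the others have a single peak near 0.9.

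The number of frogs below 0.006 ranged from 3 to 140 per CpG, with a median of 21. At 368 CpGs no frog lay from 0.02 to 0.2, and at 34 CpGs at least 10 frogs did. The limit of 0.006 divided the lowest level at some CpGs, since 3.34% of values lay from 0.006 to 0.05. Close to the limits of the rule, 29 of the CpGs had exactly 3 frogs below 0.006, and 24 CpGs with 2 such frogs were left out. The third-lowest fraction was 0.00574, 0.00543 and 0.00529 at the members nearest to the limit. At the CpGs just outside, it was 0.00617, 0.00619 and 0.00632. The third-highest fraction was 0.507, 0.522 and 0.536 at the nearest members and 0.473, 0.465 and 0.462 at the nearest CpGs outside. Applied to adults alone, the rule kept 483 CpGs. Among those lost were Chr5:131237170 inside LOC100493218 and Chr2:140129243 inside r3hdm2, at which the 3 Superman F9 WT tadpoles were the only frogs above 0.5. At Chr5:131237170 these tadpoles had fractions from 0.678 to 0.744, and the median of all frogs was 0.0205. At Chr2:140129243 they had 0.536 to 0.609, and the median was 0.0249.

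The most even division was at Chr1:79104012, 5350 bp from ppm1k, whose product is a phosphatase of branched-chain amino acid breakdown in mammals. Of the 192 frogs, 59 were below 0.006, 0 lay from there to 0.3, 75 lay from 0.3 to 0.7 and 58 were above 0.7. In tank B415, of strain NXR 1111, frogs 152 and 154 had a fraction of 0 at Chr1:79104012. In the same tank, frogs 150, 153, 155 and 156 had 0.502, 0.497, 0.523 and 0.496, and frogs 148, 149 and 151 had 0.922, 0.935 and 0.8995. The 9 tank mates thus covered all 3 levels without an overlap. All 13 frogs of tank B309 and all 19 of tank B226 lay at 1 level, at 0 in the former and from 0.930 to 0.976 in the latter.

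Chr1:83365070, which lies 32485 bp from the ephrin receptor gene epha5 and 4261058 bp from Chr1:79104012, had the same numbers of frogs at each level. All 192 frogs were at the same level at both CpGs, and their fractions correlated with Pearson r = 0.995 across frogs. Chr6:127349587 divided the frogs into 58 low, 61 intermediate and 73 high. Chr4:98704010, 6814 bp from pappa2, a protease that cleaves binding proteins of insulin-like growth factors in mammals, divided them into 57, 77 and 57, with 1 frog between.

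Levels differed between tanks. The share of the variance of a CpG that lay between tanks had a median of 0.698 at the selected CpGs and of 0.440 at the others, and between strains it was 0.651 and 0.351. The rule asks for values below 0.006 and above 0.5, so the selected CpGs have a wide spread by choice. The comparisons with the other CpGs in this paragraph are therefore descriptions. Tank F tests in limma called 96.9% of all CpGs and 487 of the 487 selected ones at an adjusted p under 0.05, which adds nothing about the selected CpGs because nearly all CpGs were called. Between 2 tanks of the same strain and age, the median absolute difference of tank means at the selected CpGs was 0.00751 to 0.0911 (7 pairs of tanks with at least 3 frogs each). Between tanks of the same strain and different ages it was 0.122 to 0.220 (6 pairs), and between tanks of other strains and the same age 0.0765 to 0.146 (3 pairs). Between tanks that differed in both it was 0.0719 to 0.591, with a median of 0.190 (362 pairs). Strains were matched by full label, so SUPERMAN F8 (tank A228, 332 days) and WT Superman (tank B102, 937 days) counted as other strains. This pair had 0.0755, below the 6 pairs of the same strain and different ages. At the other CpGs the medians of the 4 kinds of pairs, in the same order, were 0.00946 to 0.0193, 0.00985 to 0.0270, 0.00886 to 0.0124 and 0.00575 to 0.0381. The ranges of the 4 kinds of pairs overlapped at the other CpGs. At the selected ones, all 6 pairs of the same strain and different ages lay above all 7 pairs of the same strain and age, whereas the lowest pairs of other strains lay within the range of the latter. This overlap with other strains came only from pairs with tank A135, in which 1 frog stood apart, as described below. Age and tank of origin cannot be told apart in these pairs, and they share tanks, so no test was made. Most pairs of the same strain joined Krieg tanks, namely C410 with an oldest Krieg tank, or the oldest Krieg tanks with each other. The low values of the oldest frogs helped to choose the CpGs, which can widen the pairs with C410. The order of the same-strain pairs therefore describes mainly the Krieg strain.

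The largest differences between tanks of the same strain and age were in pairs with tank A135, in which 1 frog stood apart. The 3 pairs that involve tank A135 had medians of 0.0625, 0.0809 and 0.0911, and the 3 other pairs of oldest Krieg tanks had 0.00804, 0.00957 and 0.00751. Frog 48 of tank A135 was above 0.7 at 208 of the 487 CpGs, compared with 91 to 108 in its 3 tank mates. Without this frog, the medians of the 3 pairs with A135 were 0.00783, 0.00880 and 0.00779. These lay below the lowest pair of tanks of other strains, at 0.0719. Its median absolute difference from the mean of those mates was 0.236, and that of each mate from the mean of the other 2 was 0.0126 to 0.0157.

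The Krieg strain carried the most low values. Each of the 22 oldest frogs was below 0.006 at 108 to 268 of the 487 CpGs, with a median of 219. The other 170 frogs were low at 12 to 136, with a median of 50. The 2 ranges overlapped only through frog 48, with 108 low CpGs, while its 21 strain mates of that age had at least 184. These 22 frogs are 11.5% of all frogs and held 33.7% of the low values. The 5 Krieg frogs of 6.91 years, in tank C410, were low at 75 to 102 CpGs and intermediate at 237 to 281, above the 52 to 140 intermediate CpGs of the oldest frogs. By strain, the share of low values ranged from 5.30% in OLIG2 F1 to 39.1% in the Krieg strain. The next highest shares were 20.1% in the 8FMead line with CAGGS:GFP and 17.7% in CMV MEM GFP. Because the low values of these frogs helped to choose the CpGs, the rule was also applied without the 22 oldest frogs, and it then kept 376 CpGs. At these 376, the 22 oldest frogs were low at 88 to 186 CpGs (median 159.5), the other 170 frogs at 12 to 132 (median 50), and the 22 held 27.8% of the low values. Frog 48 again had the 88, and the other 21 had at least 145.

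**Figure D2:**
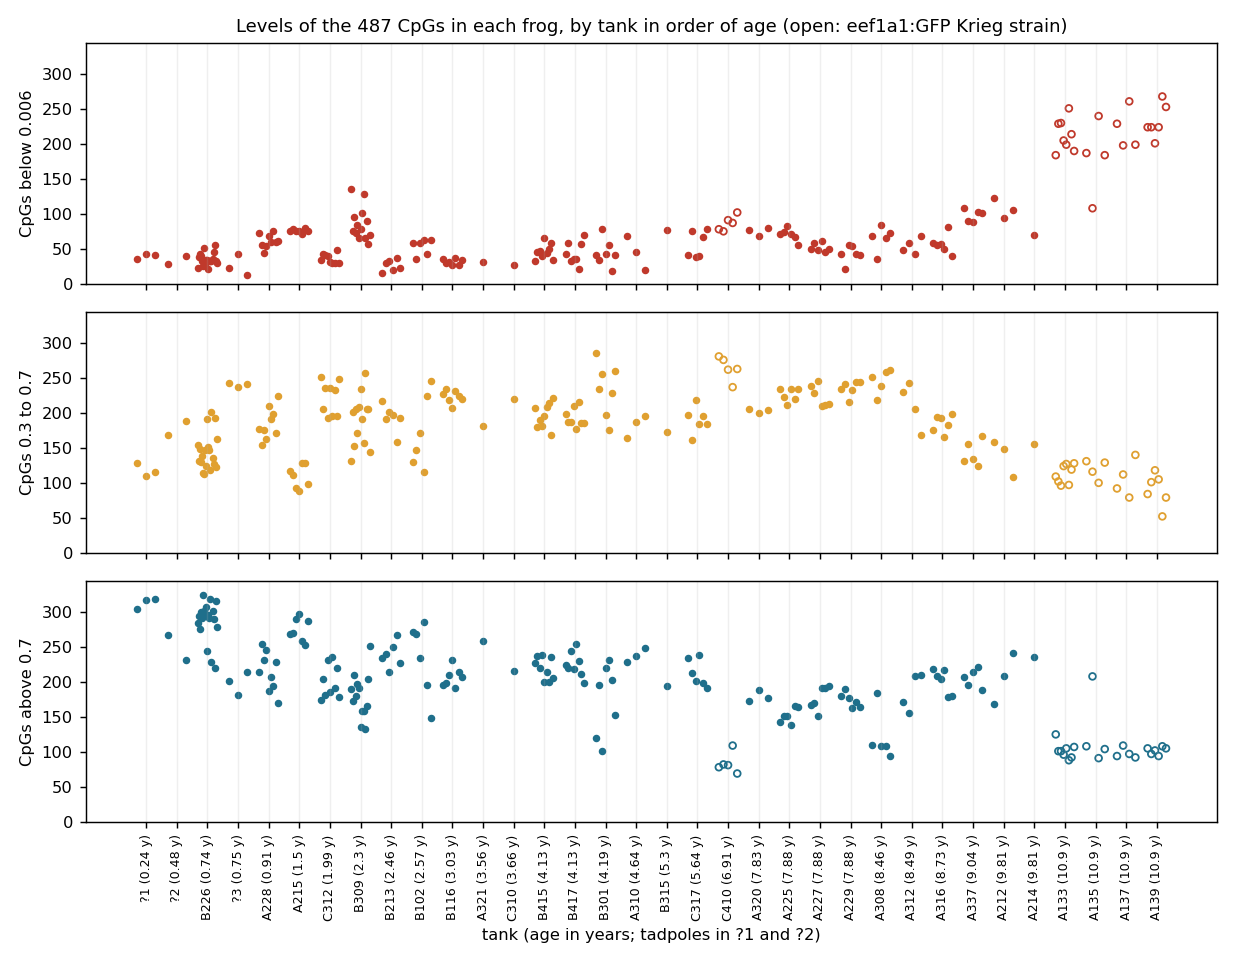
The number of the 487 CpGs below 0.006 (top), from 0.3 to 0.7 (middle) and above 0.7 (bottom) in each frog (vertical axes), by tank in order of the highest age in the tank (horizontal axis). Each point is 1 frog, and open points are Krieg frogs. Of the 22 oldest frogs, 21 have more low CpGs than any other frog, and the Krieg frogs of 6.91 years have 75 to 102.

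Low frogs were found in several strains at most CpGs, with a median of 4 strains. At 132 CpGs they came from at least 10 strains, and at 59 CpGs from a single strain, which was Krieg at 49 of them, Xtr.Tg(cryga:GFP)Grngr at 5, TYR at 2, the 8FMead line with CAGGS:GFP at 2 and tubb2b GFP at 1. A CpG with low frogs of a single strain met the rule only through that strain, and strains with fewer than 3 frogs cannot appear. Krieg also had the most frogs (27), so these counts do not compare strains. The largest groups of low frogs from a single strain were at Chr1:45537816, Chr1:47871432 inside wdr17 and Chr1:69914249, 18410 bp from ndst4. The product of ndst4 is an enzyme that modifies heparan sulfate chains in mammals. At each of the 3 CpGs, the low frogs were the 22 oldest Krieg frogs and no others. At Chr1:45537816 all 22 had a fraction of 0, and the 5 Krieg frogs of tank C410 had 0.451 to 0.508. In the remaining tanks, 152 frogs were above 0.7 and 13 were intermediate. Over the 44 CpGs at which all 22 oldest frogs were low, the 5 frogs of C410 were all low at 20, all intermediate at 16, all high at 0, all from 0.006 to 0.3 at 1 and of several levels at 7. Without frog 48, the other 21 oldest frogs were all low at 100 CpGs, at which the 5 frogs of C410 were all low at 35, all intermediate at 40, all high at 0, all from 0.006 to 0.3 at 5 and of several levels at 20.

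Within tanks, the levels segregated. In the 29 tanks with at least 3 frogs there were 14123 combinations of a tank and a selected CpG. All frogs were high in 24.4% of them, all intermediate in 13.0% and all low in 6.34%. Intermediate and high mates without a low one occurred together in 26.4% (3726 combinations). Low and intermediate mates without a high one occurred together in 11.7% (1658 combinations). Low and high tank mates occurred together in 6.97%, or 984 combinations, and in 884 of these (89.8%) an intermediate tank mate was present as well. Of the frogs in the 984 combinations, 25.2% were low, 44.5% intermediate and 26.4% high. Every such combination was counted because it held both a low and a high frog, which by itself sets a minimum for both shares. This minimum is higher in smaller tanks. These shares, and those given below without frog 48, are therefore descriptions and do not estimate a segregation ratio. Of the 100 combinations without an intermediate frog, 68 came from tank A135. Without frog 48, the number of CpGs with low and high frogs in that tank was 14 in place of 104. Over all tanks, low and high mates then occurred together in 894 combinations (6.33%), of which 857 (95.9%) held an intermediate mate, and 23.9% of the frogs in them were low, 46.2% intermediate and 26.2% high. The combinations with all frogs low were 6.90% without frog 48.

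At 371 of the 487 CpGs, low and high frogs shared at least 1 tank, and without frog 48 this was so at 359. At 116 CpGs there was no such tank, at 97 there was 1 and at 112 there were 2. The highest number was 11 tanks, at Chr3:62371127 inside syt1, the gene of a calcium sensor of synaptic vesicle release. In tank B226, with 19 NIGERIAN F8 frogs aged 0.736 years, 5 frogs had a fraction of 0 at Chr3:62371127, 10 had 0.381 to 0.491 and 4 had 0.851 to 0.889. The 3 levels did not overlap in this tank. In tanks B415 and B417, both of strain NXR 1111, all 17 frogs were intermediate at Chr3:62371127, with tank medians of 0.435 and 0.450, and in tank A337 all 5 frogs were at 0. The next most frequent were Chr3:63137979, 33958 bp from the monocarboxylate transporter gene slc16a7, with 9 tanks, and Chr1:72108751, 349 bp from LOC100493511, with 8 tanks.

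**Figure D3:**
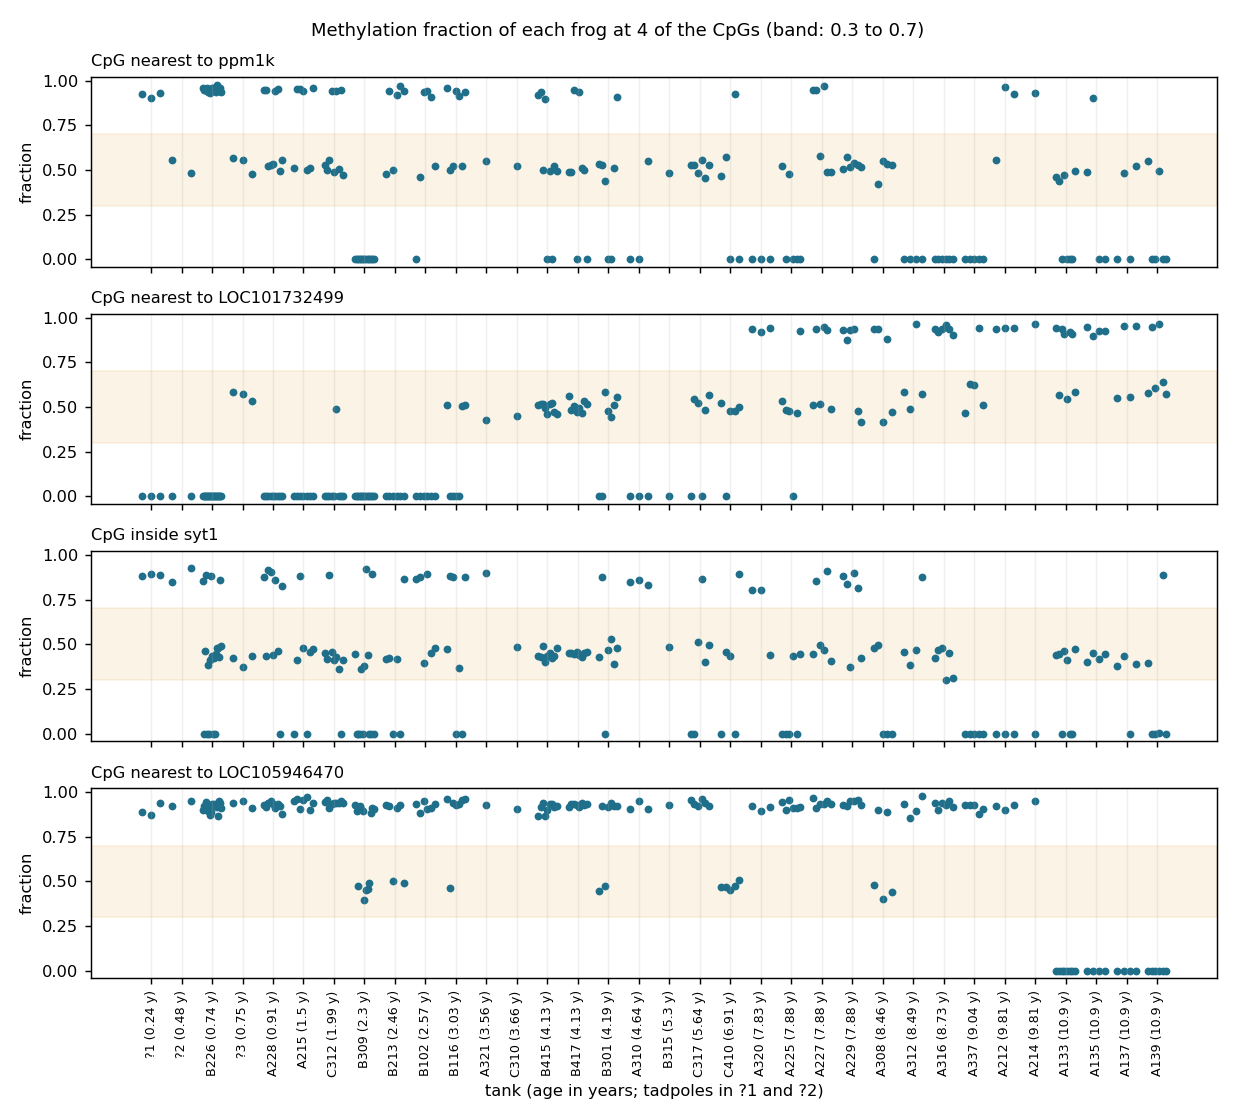
Methylation fraction (vertical axis) of every frog at 4 selected CpGs, by tank in order of age (horizontal axis), with the band from 0.3 to 0.7 shaded. At the CpG nearest to ppm1k 59 frogs lie below 0.006, 75 in the band and 58 above 0.7. At the CpG nearest to LOC105946470 only the 22 oldest frogs are at 0.

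Unselected CpGs next to a selected one had on average slightly lower fractions in the low frogs than in the high frogs of the same tank. Measured CpGs that were not selected lay within 100 bp of 267 of the 487 CpGs. The restriction to unselected CpGs leaves out neighbours that themselves met the rule. In each of 28 tanks, these neighbours were compared between the tank mates below 0.006 and those above 0.7 at the selected CpG, over 513 combinations of CpG and tank. The tanks held from 2 (C312) to 63 (B309) such combinations. The mean fraction of the neighbours was 0.834 in low frogs and 0.878 in high frogs. The difference was -0.0444 ± 0.0208 (SD, n = 28 tanks), ranged from -0.0856 to -0.00136 and was negative in 28 of 28 tanks (two-sided sign-flip permutation test over tanks, p = 1e-05, the smallest that 100000 permutations can give). The test treats tanks as independent, although the same CpGs recur across tanks and some tanks share a strain and age. With selected CpGs counted as neighbours too, a setting chosen after the values were seen, the difference was -0.0974 ± 0.0834 (SD, n = 29 tanks). The means were 0.775 in low and 0.872 in high frogs, and the difference was negative in 29 of 29 tanks. The rule used the values of these added neighbours, so this setting is given as a description without a test. The difference at the selected CpGs themselves, which the levels define, was -0.889 in the 513 combinations. Across all frogs, the median difference over the 253 CpGs that could be compared was -0.0172 (quartiles -0.0579 and 0.000815). This is a median over CpGs, so it is not set against the mean over tanks. The neighbours of 167 of the 253 differed by less than 0.05 between low and high frogs, and those of 5 CpGs were lower by over 0.3 in the low frogs. The largest such difference was at Chr2:107165746, where the neighbour at 24 bp had a mean fraction of 0.140 in low frogs and 0.742 in high frogs, a CpG singled out after its values were seen.

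**Figure D4:**
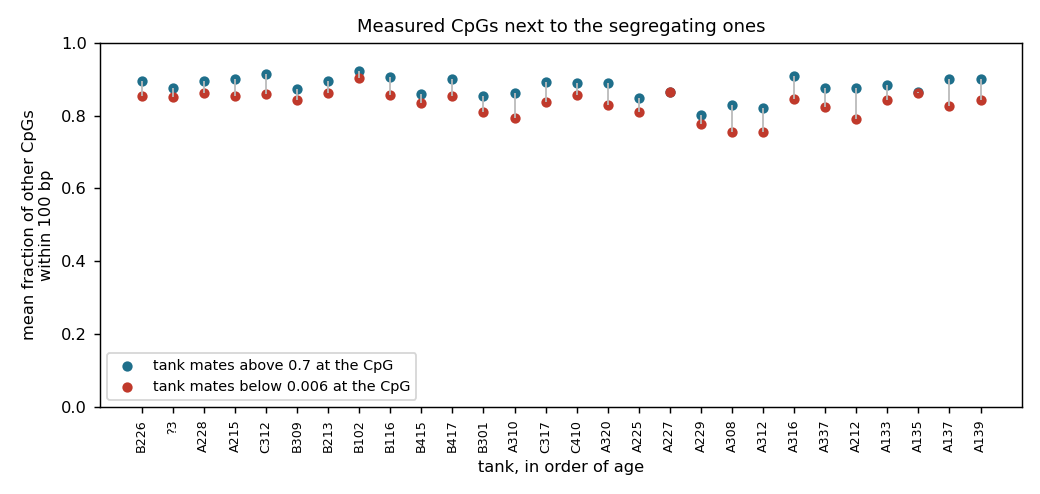
Mean methylation fraction (vertical axis) of measured, unselected CpGs within 100 bp of a selected CpG, in tank mates below 0.006 (red) and above 0.7 (blue) at the selected CpG, for each of 28 tanks in order of age (horizontal axis). Grey lines join the values of a tank. The low frogs are lower in 28 of 28 tanks, with differences from -0.0856 to -0.00136.

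The fractions of selected CpGs close to each other were often correlated across frogs. The 487 CpGs formed 437 groups when CpGs up to 1000 bp apart were joined, of which 395 held 1 CpG, 35 held 2, 6 held 3 and 1 held 4. Across frogs, the median Pearson r of the 59 pairs within a group was 0.971, and r was above 0.9 in 35 pairs and below 0 in 10. In the median pair 74.0% of frogs lay at the same level at both CpGs, and in 16 of the 59 pairs at least 90% did. The frogs of a pair are the same libraries and tank mates are related, so these are descriptions. With the tank mean of each CpG subtracted, the median absolute r of pairs of selected CpGs was 0.928 up to 1 kb, 0.691 from 1 to 100 kb, 0.629 from 100 kb to 1 Mb and 0.490 from 1 to 5 Mb. The median absolute r was 0.370 from 5 to 20 Mb, 0.144 over 20 Mb and 0.0577 between chromosomes. On chromosome 1, 45 selected CpGs lay from 33000900 to 33349145 and 9 from 32551766 to 32962674. Pairs among these CpGs make up most of the 611 pairs from 1 to 100 kb and of the 1092 from 100 kb to 1 Mb. The medians at these distances therefore describe mainly 1 stretch of the genome. Of the pairs on the same chromosome 1 to 5 Mb apart, 14.9% had an absolute r above 0.8 after this subtraction, compared with 0 of the 96254 pairs on different chromosomes.

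In 12 of the 59 close pairs, no frog was low at both CpGs. In 8 of these, every frog that was low at one CpG was above 0.7 at the other. Chr7:115067868 and Chr7:115067885 are 17 bp apart, with 21 and 64 low frogs, and all 85 of these frogs were high at the other CpG. The same held for 42 frogs at Chr4:74015253 and Chr4:74015288, 35 bp apart, and for 35 frogs at Chr2:131486605 and Chr2:131486622, 17 bp apart. These pairs were singled out after their values were seen. The sequences of the latter 2 pairs show that both CGs, in capitals, stand in the same short stretch.
Chr4:74015253 and Chr4:74015288 (chr4:74015240-74015300): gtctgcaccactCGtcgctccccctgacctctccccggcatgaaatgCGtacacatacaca
Chr2:131486605 and Chr2:131486622 (chr2:131486592-131486634): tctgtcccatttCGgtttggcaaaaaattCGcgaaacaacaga

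The selected CpGs were spread over the 10 chromosomes in unequal shares. They made up 14.4% of the measured CpGs of chromosome 4 (94 of 655) and 8.26% of those of chromosome 1 (165 of 1998), but 1.08% on chromosome 9 (3 of 278) and 1.92% on chromosome 10 (3 of 156). The 1 Mb window at 33 Mb of chromosome 1 held 45 of them among 681 measured CpGs (6.61%), a share below the 7.25% over all measured CpGs. Of the selected CpGs, 39.2% lay inside the span of an annotated gene, and of the others 37.6%. Exons, introns and UTRs were not annotated in the table used here.

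Age was compared with the selected CpGs by Spearman correlation (r_s) over the 187 adults. At a Benjamini-Hochberg adjusted p under 0.001 over all 6717 CpGs, 304 of the 487 selected CpGs (62.4%) were negatively correlated with age, compared with 33.3% of all CpGs. Positive correlations were called at 39 selected CpGs (8.01%) and at 5.52% of all CpGs. The median r_s was -0.373 at the selected CpGs and -0.163 at the others. Within lanes, 265 negative and 27 positive correlations were called on lane 1 (12.7% and 2.95% of all CpGs), and 134 and 17 on lane 2 (17.2% and 2.99%). The p-values treat tank mates as independent. Over the means of 32 tanks of adults, 20 negative and 3 positive correlations were called among the selected CpGs (4.11% and 0.616%), against 0.968% and 0.342% of all CpGs.

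The oldest frogs entered both the rule and the correlations. At least 1 of the 22 oldest frogs was below 0.006 at 362 of the 487 selected CpGs, at 287 of the 304 negatively correlated ones and at 4 of the 39 positively correlated ones. A low value in an old frog itself lowers r_s, so nothing is read from these counts. Without these 22 frogs, 206 negative and 25 positive correlations were called (42.3% and 5.13%), against 32.4% and 4.32% of all CpGs. Of these, 193 and 22 were also called with all adults. Among the 376 CpGs that met the rule without the oldest frogs, 208 (55.3%) were negatively and 39 (10.4%) positively correlated over all adults. Without the oldest frogs, 163 (43.4%) and 25 (6.65%) of the 376 were called. Without the oldest frogs, the median r_s was -0.225 at the 487 selected CpGs and -0.168 at the others. The oldest age occurred in a single strain and on a single lane, so age, strain and lane cannot be told apart in these frogs.

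**Figure D5:**
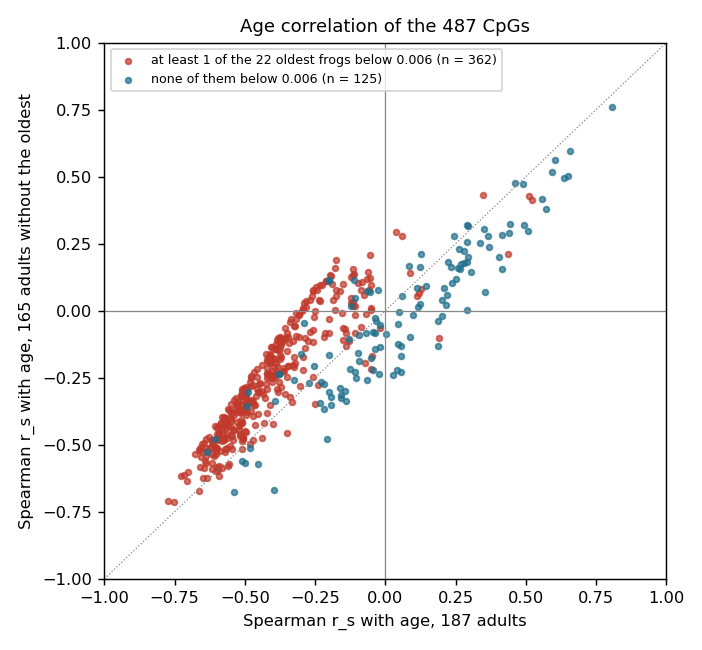
Spearman correlation of the fraction with age over 187 adults (horizontal axis) and over the 165 adults without the oldest frogs (vertical axis) at each of the 487 selected CpGs. Red points are the 362 CpGs with at least 1 of the 22 oldest frogs below 0.006, and blue points the 125 with none. Most red points lie above the dotted line of equal values, so that their correlation is less negative without the oldest frogs (median of all 487 CpGs -0.225, compared with -0.373).

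Among the selected CpGs, the most positive correlation was at Chr6:95397763, 85251 bp from LOC101732499 (r_s = 0.807, adjusted p = 2.34e-40; tank means 0.790). The levels there followed the tanks. All 19 frogs of B226, all 9 of A228, all 7 of A215, all 13 of B309, all 6 of B213 and all 6 of B102, aged 0.736 to 2.57 years, were below 0.006, as were 8 of the 9 frogs of C312. The 3 frogs of the young tank ?3 (273 days), of the Xtr.Tg(cryga:GFP)Grngr strain and with Tadpole in their titles, had 0.534 to 0.582. In tanks A212 and A214, with 4 frogs of the same strain aged 3583 days, the fractions were 0.938 to 0.964. The next most positive were Chr6:133092935, 78938 bp from abra (r_s = 0.656), and Chr7:68901660 inside ntm (r_s = 0.651), whose product is a neural cell adhesion molecule. The latter had r_s = 0.323 on lane 2, where it was no longer called.

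The most negative correlation was at Chr6:66134386, 33199 bp from LOC116411605 (r_s = -0.773, adjusted p = 7.83e-35; tank means -0.806). In tanks B226, A228 and A215, from 269 to 547 days, all 35 frogs lay from 0.715 to 0.844 at Chr6:66134386. In C410, A227, A229 and A308, from 6.91 to 8.46 years, all 22 frogs lay from 0.325 to 0.457. In the same span of ages, the 3 frogs of A320 (7.83 years) ranged from 0 to 0.386 and the 6 frogs of A225 (7.88 years) from 0.405 to 0.771. The 4 frogs of A312 (8.49 years) and the 6 of A316 (8.73 years) ranged from 0 to 0.373 and from 0.00330 to 0.425. In A337, A212 and A214, from 9.04 to 9.81 years, all 9 frogs were at or below 0.0162. In the 4 oldest tanks 21 of 22 frogs were at or below 0.0169, and frog 48 of A135 had 0.740. In contrast, the 3 young frogs of tank ?3 lay from 0.403 to 0.474, below frogs of similar age in other strains. These 3 frogs carry Tadpole in their titles, so their tissue is uncertain.

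Chr2:14432305, inside kcne1, which codes for a subunit of potassium channels, had r_s = -0.753 (tank means -0.869), and only 5 frogs were low, all of them oldest Krieg frogs. The other Krieg frogs and all other strains were intermediate or higher, apart from 3 frogs from 0.006 to 0.3, and 165 frogs were above 0.7. All 19 frogs of tank B226 lay from 0.865 to 0.924 at Chr2:14432305, and the 6 frogs of A316, aged 8.73 years, from 0.811 to 0.847, both within the high level. Chr1:31638784 had r_s = -0.728, with 149 intermediate frogs and 3 above 0.7. At Chr1:45537816, where the oldest frogs alone were low, r_s was -0.334 (adjusted p = 1.15e-05) over all adults, -0.0315 without the 22 oldest, and -0.242 (adjusted p = 0.00281) without tank A133, which ends the call. Chr3:62371127, with the most segregating tanks, had r_s = -0.143 and was not called (adjusted p = 0.0792).

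Age was also compared within strains, by limma with strain and age as terms. At an adjusted p under 0.05, 140 of the selected CpGs (28.7%) fell and 25 (5.13%) rose with age, against 7.34% and 2.02% of all CpGs. Of the 140, 125 were also negatively correlated with age across all adults, and 0 were positively correlated. With tank as a random block, 30 fell (6.16%) and 6 rose (1.23%), against 0.849% and 0.179% of all CpGs. The block used 1 correlation of tank mates, shared by all CpGs. The share of variance between tanks was higher at the selected CpGs (median 0.698) than at the others (0.440). The shared correlation can therefore allow too little for the likeness of tank mates at the selected CpGs. The low values of the oldest Krieg frogs helped to choose the CpGs, so part of the fall follows from the selection. Among the 376 CpGs that met the rule without these frogs, 97 fell and 25 rose. With tank as a block, 20 of the 376 fell and 6 rose. The shares of all CpGs were those given above for each fit. Without the Krieg strain, 79 fell and 13 rose, against 7.34% and 1.41% of all CpGs. Without Xtr.Tg(cryga:GFP)Grngr, whose young frogs carry Tadpole in their titles, 166 fell and 30 rose, against 6.13% and 2.20% of all CpGs. Neither of these fits had a block. In the first fit, with all strains and no block, the change at Chr6:95397763 was 0.0660 per year (adjusted p = 3.26e-07). At Chr6:66134386 the same fit gave -0.0644 per year (adjusted p = 1.49e-10). Both CpGs were named for their extreme correlations with age in the same adults. At Chr1:79104012 the change in this fit was 0.00327 per year (adjusted p = 0.956), although the correlation across all adults was -0.508. Counted by full label, only 5 strains were held at more than 1 age, in 1 to 4 tanks per age. Age within a strain therefore cannot be told apart from the tank.

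In each of these 5 strains the means of older and younger frogs differed by over 0.3 at some selected CpGs in both directions, with few higher ones in Xtr.Tg(otx2:GFP)Kellr. Between 2 tanks of the same strain and age, with at least 3 frogs each, 1 to 33 selected CpGs differed by over 0.3 (7 pairs, mostly of oldest Krieg tanks). These pairs compare means of several frogs. They give no baseline for the strains below that had a single frog at 1 of their ages. The Krieg frogs of 10.9 years were lower than those of 6.91 years at 120 CpGs and higher at 27. The low values of the frogs of 10.9 years helped to choose the CpGs. The Xtr.Tg(cryga:GFP)Grngr frogs of 3583 days were lower than those of 273 days at 97 and higher at 42. The frogs of 273 days carry Tadpole in their titles, so tissue as well as age may differ here. In Xtr.Tg(otx2:GFP)Kellr, 33 were lower and 5 higher in the tank of 1532 days than in that of 1105 days. In Xtr.Tg(CMV:Aequorin,GFP)NXR, 52 were lower and 51 higher in the single frog of 1337 days than in the 9 frogs of 726 days. In tubb2b GFP, 65 were lower and 21 higher in 5 frogs listed at 2059 days than in frog 121, their tank mate listed at 547 days. At the 6230 other CpGs, these counts were 5 and 6, 13 and 4, 3 and 2, 9 and 22, and 47 and 6 in the same order. The rule favours CpGs with widely spread values, so this comparison is a description.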

How the data were processed

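The authors trimmed the reads with fastp, used BiSulfite Bolt to align them to v10.0 of the genome and deposited, without pooling, the methylation fraction of each CpG covered by 100 or more reads in every one of the 192 frogs. SAMtools 1.11 is named in the submitters' processing notes. All 192 deposited columns hold fractions from 0 to 1 and all were used, and the deposited table precedes the mixture filter of the study. Age and strain came from the labels, and tank, lane and mean CpG depth from the study's sample table. Genes came from RefSeq (UCB_Xtro_10.0, the v10.0 assembly), by distance to the gene's span. The probe table was at hand only in part.

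Spearman correlations over adults used Benjamini-Hochberg adjustment over 6717 CpGs and a threshold of 0.001. Age with strain as a further term, and tanks, were tested with limma 3.58.1 (R 4.3.3) on the fractions, with a threshold of 0.05. The tests were checked on simulated data. The simulation for limma drew frogs independently around strain means, so it does not cover the likeness of tank mates. Other steps were run in pandas 2.3.3, scipy 1.17.1 and numpy 2.4.6 under Python 3.11.15. Frogs of a tank are not independent, and p-values over frogs measure the spread between frogs.

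The CpGs, lists and tests were chosen with earlier results of these data known. The CpGs named are those with the most even levels (4), the most positive and negative r_s (3 each), the most segregating tanks (3), the most low frogs of a single strain (3), the most low frogs with few intermediate ones (2) and those nearest to LOC101732499 and LOC116411605. CpGs named outside this rule were chosen after their values were seen, as were the settings without frog 48, adults only and without the oldest frogs for the rule, and selected CpGs as neighbours. Whole-genome data, external frogs and variant calls were not analysed here.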

Additional observations from a re-analysis of the deposited data

Results flagged for a closer look

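Within tanks of 4 to 10 frogs, the numbers of selected CpGs at each level were searched for a frog far from its tank mates, with 66 sets of values examined. Chance alone flags about 1 in 20, which over 66 sets is no fewer than the 2 found. The counts at the 3 levels come from the same frogs, so the sets are not independent. The values of 2 frogs stood apart: in tank A135, frog 48 was above 0.7 at 208 CpGs and its tank mates at 91 to 108, and in tank A308, frog 22 was above 0.7 at 184 CpGs and its tank mates at 94 to 110. The gap was 0.855 of the range of the tank for frog 48 and 0.822 for frog 22. Over the 487 CpGs, the median absolute difference of frog 22 from the mean of its 4 tank mates was 0.117, and that of each mate from the mean of the other 3 was 0.0486 to 0.0735.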

How the results depend on the processing

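The number of CpGs selected was 440 to 575 under the other limits of the rule, and the number segregating in at least 1 tank 359 to 445. Over tank means, the age correlations called among them were 3 positive and 20 negative, on lane 2 alone 17 and 134, and without the oldest frogs the positive ones were 25. At the CpGs that met the rule without the oldest frogs, 25 positive and 163 negative ones were called without these frogs. Leaving out 1 tank at a time gave 30 to 41 positive and 270 to 311 negative ones, against 4.21% to 5.66% and 22.5% to 36.4% of all CpGs. Within strains, the log2 logit scale gave 12 rising CpGs (2.46%), close to the 2.07% of all CpGs. On that scale 182 fell (37.4%), against 8.16% of all CpGs. Tank as a block gave 6 rising and 30 falling, and leaving out the Krieg strain 13 rising and 79 falling. The correlation at Chr1:45537816 turned to 0.170 on lane 2, which holds none of the oldest frogs. The neighbour difference was -0.0459 to -0.0432 without each tank in turn, -0.0240 between low and intermediate frogs, and -0.0974 with selected CpGs counted as neighbours. All 487 CpGs differed between tanks, or between strains where strain was the factor, in every alternative run. The same runs called 93.4% to 97.5% of all CpGs, so this adds nothing about the selected CpGs. The causes of the other changes were not tested. The coverage minimum could not be varied, because no counts were used. No paired analysis was possible because the labels number frogs and not replicates shared between groups. Depth behind single values is unknown, and tank, strain, age and lane overlap.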
